A study of Mus musculus with 4 samples.

Results

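Vitamin K-dependent Gla proteins carry glutamate residues that an enzyme of the endoplasmic reticulum converts to gamma-carboxyglutamate (Gla), which binds calcium. The 4 genes described here are Mgp (matrix Gla protein), Ucma (unique cartilage matrix-associated protein, also called Gla-rich protein), Gas6 (growth arrest-specific 6) and Ggcx (gamma-glutamyl carboxylase, the enzyme itself). They were taken by their symbols, 4 of the 31053 features counted, and all 4 were found once. The libraries hold single cells of mouse tibial and femoral epiphyses, the cartilage-rich ends of long bones, 1 library each from wild type mice (here the controls) and Sox9fl:fl AcanCreERT2/+ mice (here the mutants) at postnatal day 13 and day 19. In the mutants both Sox9 alleles are flanked by recombination sites, and a tamoxifen-inducible Cre is driven from Acan, the aggrecan gene of cartilage cells. The tamoxifen schedule, the floxed exons, the strain and the number of mice behind a library are unstated in the labels. The series-level design note lists ages and a genotype that no sample label carries, and the sample labels were followed.

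Mgp and Ucma proteins are secreted into cartilage matrix and are known for limiting its calcification, and Mgp also binds bone morphogenetic proteins (BMPs). Gas6 is a soluble ligand of the TAM receptors Tyro3, Axl and Mertk. Ggcx carboxylates all of them in the endoplasmic reticulum, using reduced vitamin K that the reductases Vkorc1 and Vkorc1l1 regenerate. The 3′ assay counts 1 unique molecular identifier (UMI) per captured molecule, whatever the transcript's length, and levels are compared here within a gene, not between genes.

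In the GRCm38 annotation Mgp (ENSMUSG00000030218) lies at chr6:136872435-136875823 on the minus strand, Ucma (ENSMUSG00000026668) at chr2:4976122-4985748 on the plus strand, Gas6 (ENSMUSG00000031451) at chr8:13465374-13494490 on the minus strand and Ggcx (ENSMUSG00000053460) at chr6:72414308-72430712 on the plus strand. Ucma and Gas6 moved in opposite directions in the mutants (below), so the 250 bases before their RefSeq transcription starts are shown (GRCm38.p6, 5′ to 3′ on the gene's strand), at chr2:4975872-4976121 for Ucma and chr8:13494536-13494785 for Gas6. Capitals mark matches, on either strand, to ACAAT or ACAAAG, letters bound by SOX-family factors, or to TGTGGT, letters bound by RUNX factors.
Ucma: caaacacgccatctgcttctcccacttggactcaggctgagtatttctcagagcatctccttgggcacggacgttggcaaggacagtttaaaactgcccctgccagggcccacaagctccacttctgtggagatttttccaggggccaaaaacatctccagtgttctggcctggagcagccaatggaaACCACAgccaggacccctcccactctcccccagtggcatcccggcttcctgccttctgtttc
Gas6: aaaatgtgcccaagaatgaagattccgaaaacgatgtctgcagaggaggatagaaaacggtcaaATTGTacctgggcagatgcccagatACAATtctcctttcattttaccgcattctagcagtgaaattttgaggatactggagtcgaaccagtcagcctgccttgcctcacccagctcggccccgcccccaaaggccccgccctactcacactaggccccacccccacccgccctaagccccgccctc
The Ucma window held 1 match, to TGTGGT on the opposite strand at 62 to 57 bases before the start, and none to ACAAT or ACAAAG. The Gas6 window held 2 matches to ACAAT, the first of them on the opposite strand, starting 186 and 161 bases before the start, and none to the other letters. No match overlapped another. Among 32851 RefSeq mouse promoter windows of the same length, 27.7% held ACAAT, 16.5% ACAAAG and 14.0% TGTGGT, so a match is a description of these letters and not a binding site. The Ggcx window held none of the 3.

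The libraries held 70507107 to 76080803 UMIs. After filters on genes and mitochondrial UMIs and removal of doublets, the control libraries kept 6186 (day 13) and 7122 cells (day 19) and the mutant libraries 7245 and 9629, at median depths of 9632.5, 5439, 8909 and 5312 UMIs. Pairs of libraries shared 19 to 44 cell barcodes. Clusters were made without the 4 genes, and 8 of 31 clusters were called chondrocyte-like from a fixed list of 20 cartilage markers, 19 of them in the annotation. These held 4305 and 1080 control cells and 2630 and 2457 mutant cells at day 13 and day 19. The summed level of the 19 markers in them was 112380 and 108180 CPM (UMIs per 1000000 UMIs of the same cells) in controls and 49350 and 57088 CPM in mutants, with no marker at 0. Different clusters held most of the class in the 2 genotypes: clusters 5 (led by Frzb and Matn1), 6 (Pcp4, Sfrp5) and 10 (Il17b) in controls, and clusters 1 (Myoc) and 7 (Cryba2, Mmp13) in mutants. Cluster 2 (Gal, Sfrp2), with 26 and 7 control and 1210 and 887 mutant cells, was left out because the fibroblast marker Col14a1 was among its leading genes. A broad class that adds it is given beside the main values. Sox9 itself was at 358 and 455 CPM in control and 194 and 181 CPM in mutant chondrocyte-like cells at day 13 and day 19, and 3′ reads may lie outside the deleted part. With 1 library per genotype and age, a value at 1 age has a 95% counting interval and no test. The tests below are edgeR quasi-likelihood fits over the 4 libraries with genotype and age as terms and 1 residual degree of freedom, Benjamini-Hochberg adjusted over all genes. Their p-values measure the spread between these 4 libraries around that fit, largely as pooled over genes, and not between mice. Each gene's own residual was combined with prior degrees of freedom shared over genes. These were 8.65 in chondrocyte-like cells, 29.8 in cluster 5 and 62.0 in macrophage-like cells. In cluster 6 the prior was infinite, so the tests there used the shared spread alone. Cells of different clusters share a library and are not replicates. Where 1 library was left out, the fit held only the term tested, genotype or age, so the model changed with the libraries.

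By median, Mgp was highest in chondrocyte-like cells. Its median over the 4 libraries was 8487 CPM there (range 6477 to 11435), 5137 CPM in pericyte-like cells (4081 to 9836) and 3140 CPM in fibroblast-like cells (2319 to 3608), led by the tendon gene Tnmd. The chondrocyte-like and pericyte-like ranges overlapped, and the pericyte-like and fibroblast-like ranges did not. In the control at day 19 pericyte-like cells stood above chondrocyte-like cells (9836 against 9656 CPM). Pericyte-like cells held 14 of the 19 cartilage markers at 3-fold or more above blood cells, at a median depth of 0.292 of the library median. The part of cartilage RNA in their values was not tested. An unnamed cluster led by Clec3b and Dpt (cluster 15) followed at 1703 CPM (1298 to 3491), then endothelial-like cells at 1196 CPM (424 to 2217), each overlapping the class before it. Erythroid-like cells, a blood class, were next at 909 CPM (537 to 1865). Osteoblast-like cells were at 450 CPM (241 to 704), from 23 and 13 cells in the controls at day 13 and day 19. Neutrophil-like cells, which do not make cartilage matrix and serve here as the background of free RNA, were at 327 CPM (214 to 635). In every library erythroid-like cells lay above them, so the neutrophil-like value is not a ceiling for blood cells. Among the erythroid-like clusters, cluster 25 (801 cells) held 9 cartilage markers at 3-fold or more above blood cells, and clusters 3, 4 and 30 held 0. The part of free RNA in neutrophil-like or erythroid-like cells, and that of cluster 25, was not tested. The osteoblast-like and neutrophil-like ranges overlapped, and the order of the 2 classes differed between libraries. In mutants Mgp was 704 CPM in osteoblast-like against 214 CPM in neutrophil-like cells at day 13, with 707 osteoblast-like cells. At day 19, with 385 of them, it was 504 against 635 CPM. In controls it was 241 against 324 CPM at day 13 and 397 against 329 CPM at day 19. The T or NK cell-like class ranged from 101 to 5155 CPM, with the mutant library at day 19 far above the other 3.

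Ucma was narrower. Chondrocyte-like cells had a median of 1391 CPM (467 to 2087), and no other class reached their lowest library except erythroid-like cells of the control at day 13, at 528 CPM. Pericyte-like cells, which also held cartilage markers (above), came second by median, at 136 to 207 CPM in the 4 libraries. The range of each remaining class overlapped the neutrophil-like background of 7.75 to 87.9 CPM. In controls the unnamed clusters 19, 28 and 29 reached 161, 178 and 194 CPM, inside the pericyte-like range, and the unnamed cluster 17 reached 41.9 CPM.

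Gas6 had another order. The Clec3b-led cluster 15 was first with a median of 615 CPM (251 to 995). Macrophage-like cells followed at 266 CPM (179 to 300), fibroblast-like cells at 204 CPM (177 to 210), pericyte-like cells at 120 CPM (101 to 676), endothelial-like cells at 114 CPM (95.5 to 135) and chondrocyte-like cells at 96.6 CPM (35.9 to 154), each range overlapping the next. All these stood above every library of neutrophil-like cells, at 0 to 14.2 CPM.

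Ggcx was detected at low counts and most evenly. Its median was 27.0 CPM in chondrocyte-like cells (22.3 to 27.9), 26.6 CPM in osteoblast-like cells (18.9 to 34.1) and 20.8 CPM in fibroblast-like cells (19.3 to 23.6), against 0.639 to 3.38 CPM in neutrophil-like cells. The 3 skeletal classes did not differ beyond their ranges.

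**Figure D1:**
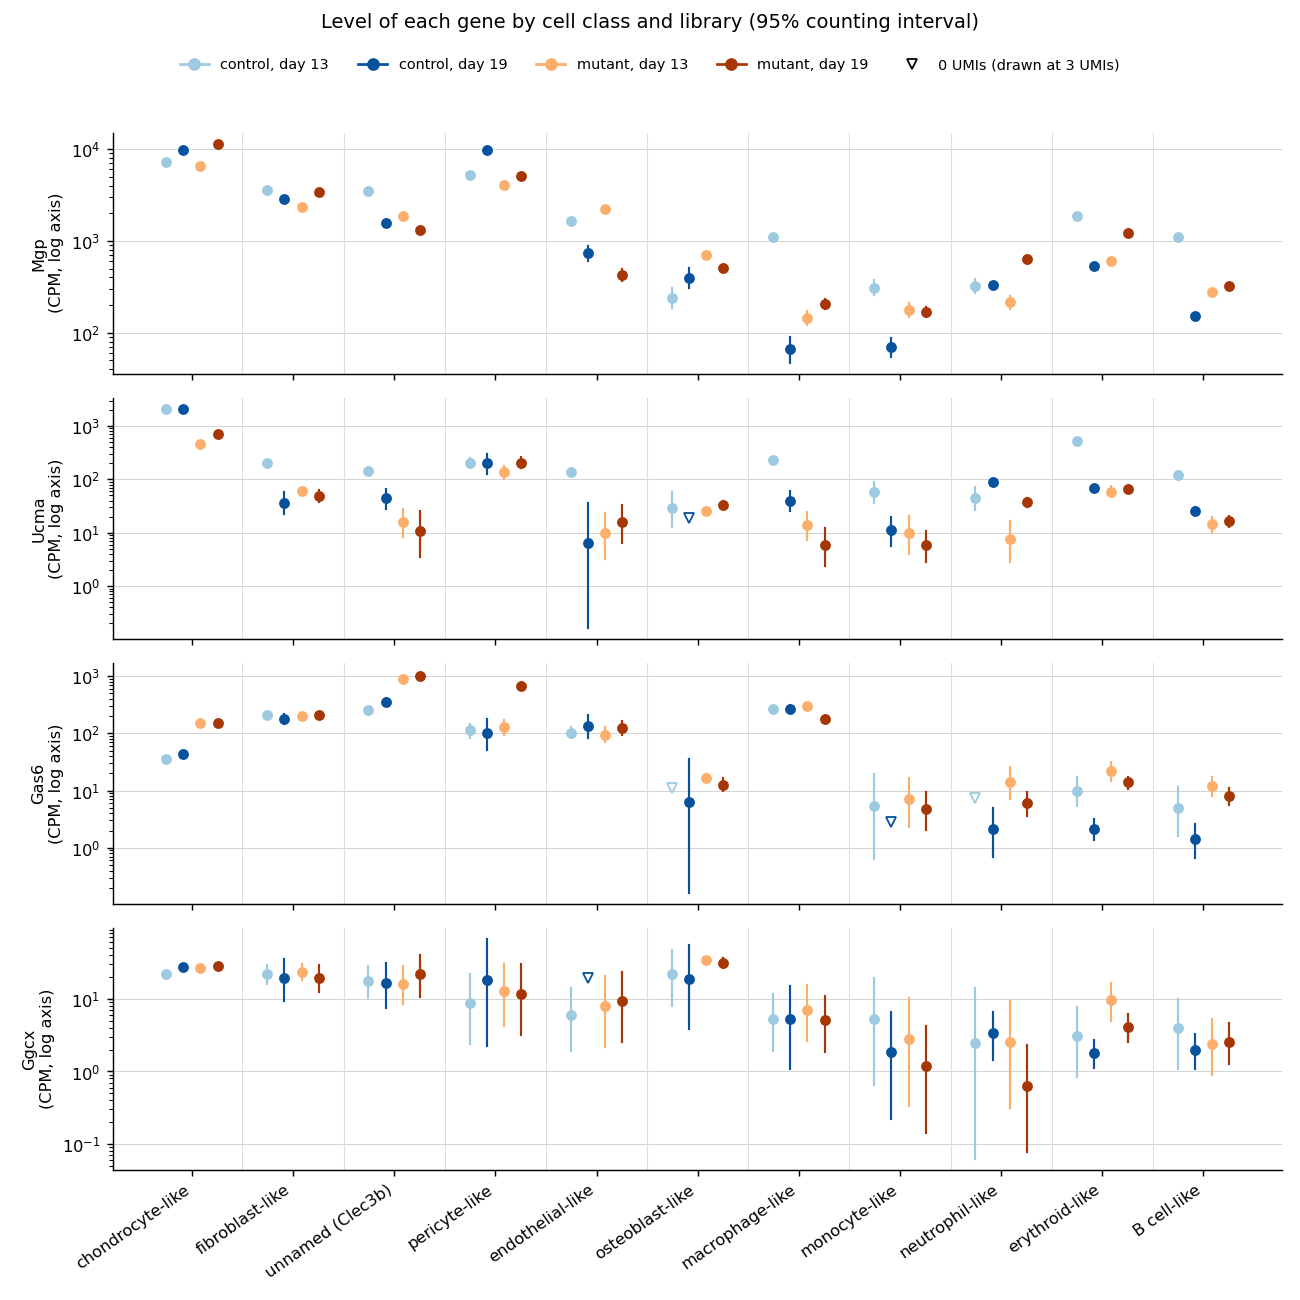
Level of Mgp, Ucma, Gas6 and Ggcx (CPM, log axis) by cell class, with 1 point per library and its 95% counting interval; open triangles mark 0 UMIs and are drawn at 3 UMIs. By median, Mgp and Ucma are highest in chondrocyte-like cells and Gas6 in the Clec3b-led cluster, and Ggcx lies between 18.9 and 34.1 CPM in chondrocyte-like, osteoblast-like and fibroblast-like cells.

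Over 41 units of class and library with at least 50 cells, in 13 classes, the genes whose log2 level followed that of each member most closely were picked among 6876 genes. For Mgp they included Meg3, Itm2a, 1500015O10Rik and Sox5 (Pearson r 0.93 to 0.90). For Ucma they were Col9a3, Cnmd, Col2a1, S100b and Col9a1 (0.95 to 0.92), and for Gas6 they were Dab2, Pmp22, Pdlim4, Myof and Slc6a8 (0.95 to 0.89). For Ggcx they were P4ha1, Fam162a, P4ha2, Yipf5 and Ikbip (0.93 to 0.91). These values describe units that share libraries and free RNA.

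The comparison of mutant with control chondrocyte-like cells asks how the 4 genes stand where the Acan-driven Cre can delete Sox9. Sox9 is the transcription factor that maintains the chondrocyte program. How many of these cells lost it was not measured. Ucma was lower and Gas6 higher in both mutant libraries, while Mgp and Ggcx did not pass the test. Of 14861 genes tested, 23.4% passed the adjusted threshold of 0.05 (12.8% higher and 10.5% lower in mutants), so passing is common in this comparison, and 2 of the 4 members did.

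Ucma, a secreted protein known from resting chondrocytes, stood at 2087 CPM in the control and 467 CPM in the mutant at day 13, and at 2085 CPM and 697 CPM at day 19. Both mutant libraries lay well below both control libraries. Mutant over control, the log2 ratio was -2.16 for the day 13 libraries (95% counting interval -2.18 to -2.14) and -1.58 for the day 19 libraries (-1.60 to -1.56). The fit over both ages gave -2.06 ± 0.213 (SE, 4.16-fold lower, edgeR adjusted p = 1.3e-04). In the broad class, where 12% of genes passed as lower and 14.0% as higher, it gave -2.28 (edgeR adjusted p = 1.2e-05). All 17 alternatives in processing kept the direction, from -2.49 to -1.13, and the 16 with a test passed it.

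Gas6 stood at 35.9 CPM in the control and 154 CPM in the mutant at day 13, and at 43.0 CPM and 150 CPM at day 19. The groups did not overlap. The log2 ratio was 2.10 at day 13 (2.03 to 2.18) and 1.81 at day 19 (1.70 to 1.91), and the fit gave 1.77 ± 0.126 (3.41-fold higher, edgeR adjusted p = 1.4e-05). In the broad class the fit gave 2.04 (edgeR adjusted p = 1.2e-06). All 17 alternatives kept the direction, from 1.40 to 2.04, and the 16 with a test passed it.

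Mgp stood at 7317 CPM in the control and 6477 CPM in the mutant at day 13, and at 9656 CPM and 11435 CPM at day 19. In these summed UMIs the mutant was thus lower at the first age and higher at the second. The mean of per-cell CPM was lower in the mutant at both ages (log2 ratio -0.48 at day 13 and -0.20 at day 19). The fit gave -0.15 ± 0.252 (edgeR adjusted p = 0.718). The sign turned with the scaling (0.03 with plain totals in place of TMM factors) and with the clustering, and values over all alternatives ran from -0.58 to 0.41, none past the test.

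Ggcx stood at 22.3 and 27.7 CPM in controls and 26.3 and 27.9 CPM in mutants at day 13 and day 19, from 556 to 1273 UMIs per library. The fit gave -0.06 ± 0.132 (edgeR adjusted p = 0.785), and 0.13 with plain totals. At day 13 the plain CPM ratio was 0.24 (0.11 to 0.36) and at day 19 it was 0.01 (-0.15 to 0.17).

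Plain totals in place of TMM moved the median of all genes from 0.01 to 0.20 on the log2 scale and the share of calls that were higher from 54.9% to 76.3%. Both Ucma and Gas6 passed under either scaling. In the chondrocyte-like class 14 fibroblast markers summed to 4345 and 3629 CPM in controls and 13698 and 11884 CPM in mutants, and 9 osteoblast markers to 2779 and 2821 CPM against 13161 and 8671 CPM. The part of these differences in the Ucma and Gas6 values was not tested.

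The share of cells with a UMI pointed the same way as the level for Ucma and Gas6. For Mgp it was lower in mutants at both ages, although the summed level at day 19 was higher. The shares were not tested. With each cell thinned to 2000 UMIs, Ucma was found in 82.4% and 79.8% of control and 29.7% and 36.8% of mutant chondrocyte-like cells at day 13 and day 19, and in 10.8%, 4.48%, 1.95% and 1.47% of neutrophil-like cells of the same libraries in that order. Gas6 was found in 7.72% and 9.01% of control and 25.7% and 25.2% of mutant chondrocyte-like cells, against 0% to 3.25% of neutrophil-like cells. Mgp was found in 88.8% and 91.9% of control and 78.3% and 84.9% of mutant cells, but also in 16.4% to 56.8% of neutrophil-like cells, so that its share is read with care. Ggcx was found in 4.89% to 5.82% of chondrocyte-like cells in the 4 libraries and did not separate the genotypes. Thinning left out 14 to 96 chondrocyte-like cells per library, whose medians before thinning were 10240 to 16809 UMIs, against 3949.5 to 6436.5 UMIs in neutrophil-like cells. Before thinning the Ucma shares were 94.7% and 93.1% in controls and 53.4% and 59.2% in mutants.

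**Figure D2:**
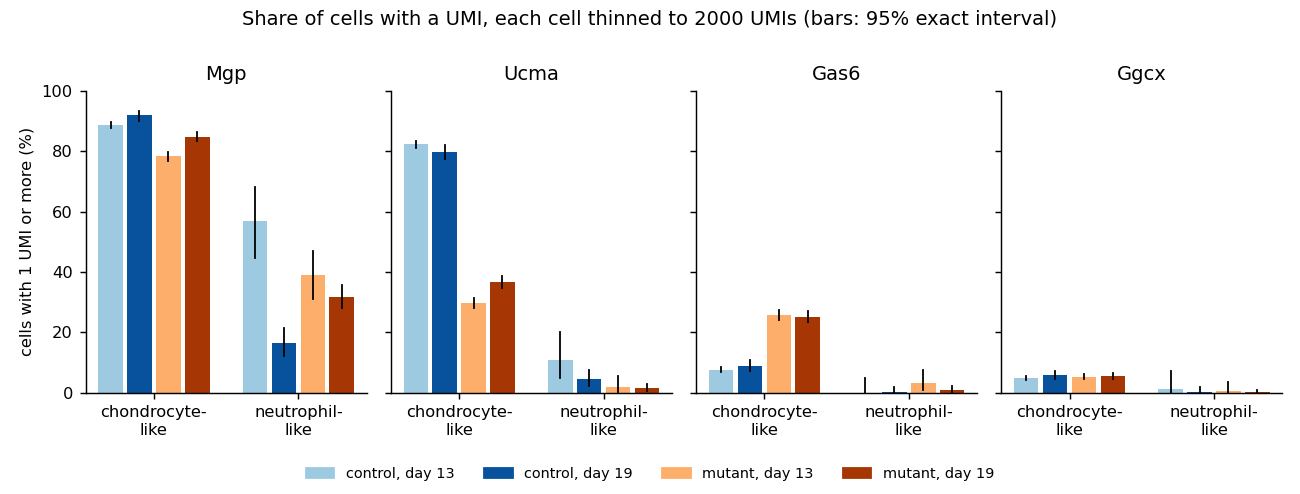
Share of chondrocyte-like and neutrophil-like cells with at least 1 UMI of each gene (percent), after each cell was thinned to 2000 UMIs; bars are libraries and lines are exact 95% intervals, which cover counting error only. Ucma stands at 82.4% and 79.8% in control and 29.7% and 36.8% in mutant chondrocyte-like cells, Gas6 at 7.72% and 9.01% against 25.7% and 25.2%, and Mgp is also seen in neutrophil-like cells.

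Single cells carried Mgp and Ucma together in most control cells. After thinning, 75.8% and 73.7% of control chondrocyte-like cells held both genes at day 13 and day 19, and 25.3% and 33.4% of mutant cells did. Cells with Mgp alone were 12.9% and 18.2% of control cells and 53.1% and 51.5% of mutant cells. Had the genes fallen on cells independently, 73.1% and 73.4% of control and 23.3% and 31.2% of mutant cells would hold both Mgp and Ucma, close to the shares seen. Cells with both Ucma and Gas6 were 6.82% and 6.94% of control and 6.96% and 7.95% of mutant cells, beside 6.36% and 7.19% and 7.63% and 9.26% if independent.

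Within clusters the 4 genes were compared again, since the class mixes cells from different places in the cartilage. Clusters 0, 5 and 6 had at least 50 cells in every library, and clusters 1, 11 and 12 were added at a minimum of 25 cells, chosen after the clusters were seen. Cluster 0 was led by Prg4, the lubricant gene of superficial articular cells, cluster 11 by Col10a1 and Ihh, genes of hypertrophic and prehypertrophic cells, and cluster 12 by cell cycle genes such as Cdk1. Of all genes tested, 3.79% passed as higher and 3.06% as lower in mutant cells of cluster 0, 1.56% and 2.31% in cluster 1, and 1.88% and 1.65% in cluster 5. The shares were 6.61% and 4.58% in cluster 6, 2.07% and 1.43% in cluster 11, and 1.16% and 0.709% in cluster 12.

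**Figure D3:**
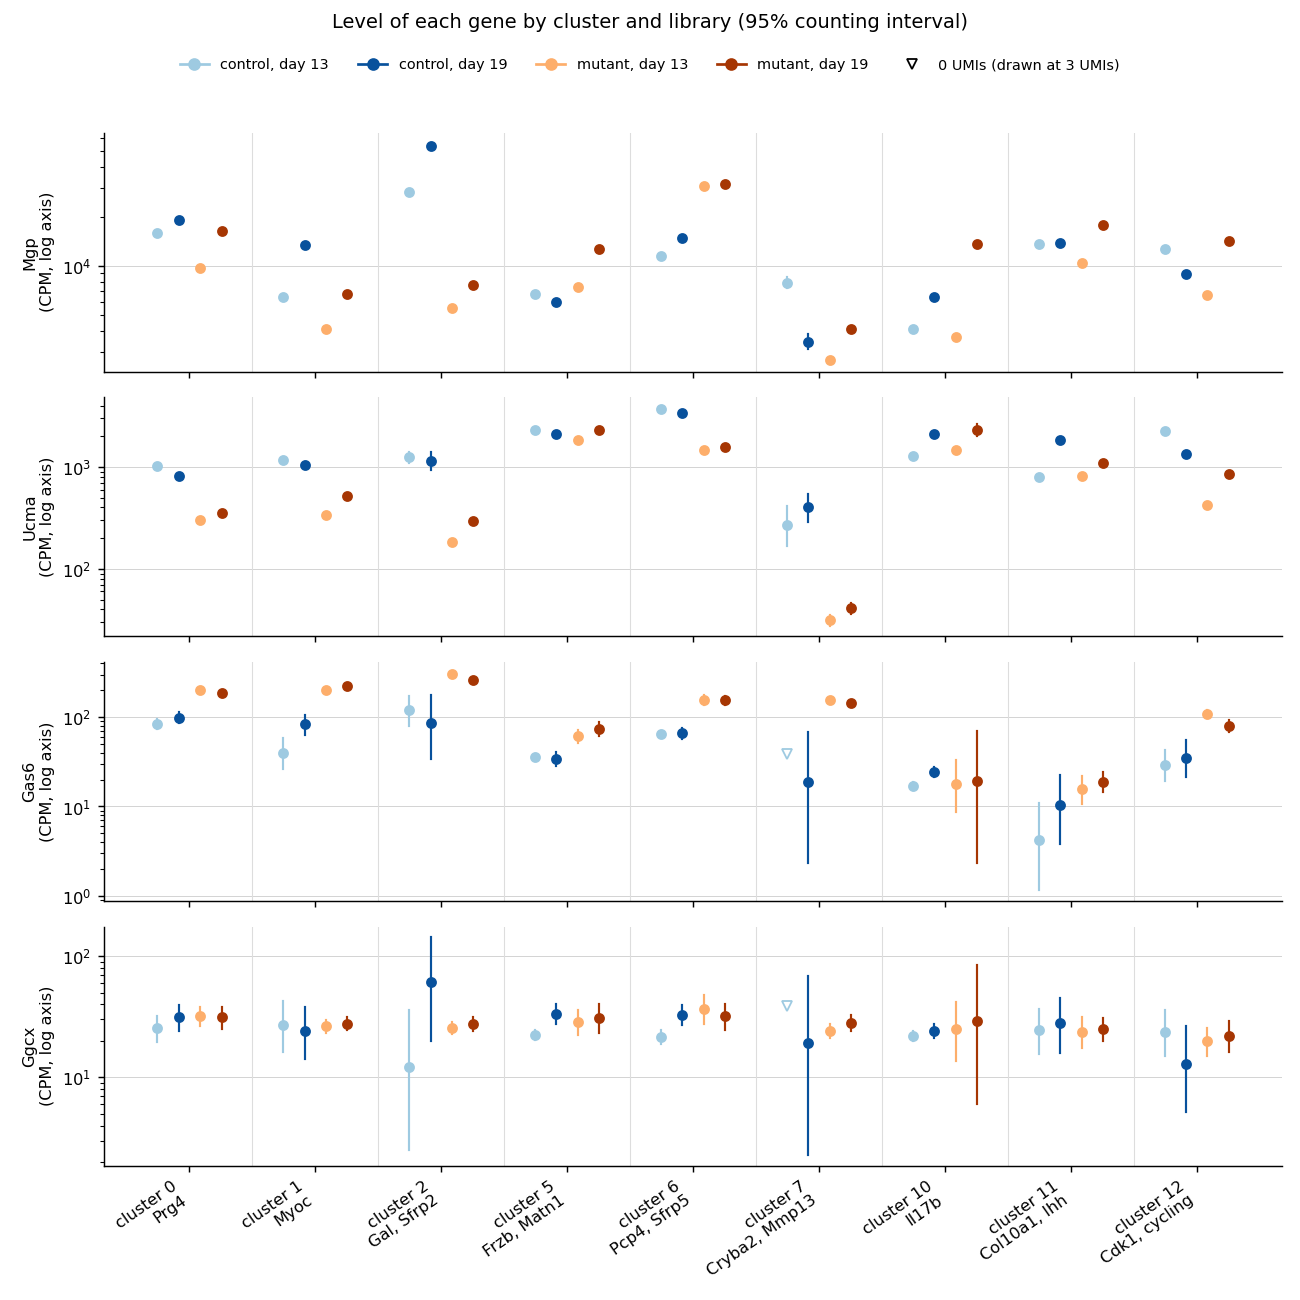
Level of the 4 genes (CPM, log axis) in 9 clusters, with 1 point per library and its 95% counting interval; cluster names give leading genes and open triangles mark 0 UMIs, drawn at 3 UMIs. Mgp in cluster 6 is at 30782 and 31408 CPM in the mutant libraries against 11493 and 14884 CPM in controls, and Ucma in mutant cells of cluster 7 is at 31.3 and 40.9 CPM.

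Mgp rose in cluster 6. It stood at 11493 and 14884 CPM in controls (1087 and 225 cells) and at 30782 and 31408 CPM in mutants (118 and 189 cells) at day 13 and day 19. Both mutant libraries lay above both controls. The fit gave 1.14 ± 0.334 (2.20-fold higher, edgeR adjusted p = 0.0090). The median cell of cluster 6 went from 4629 and 6242 CPM in controls to 11384 and 18473 CPM in mutants, while the share of its cells with an Mgp UMI after thinning was 96.3% to 100% in all 4 libraries. In the same cells fibroblast markers summed to 2714 and 2352 CPM in controls and 6841 and 5009 CPM in mutants, osteoblast markers to 432 and 523 against 4631 and 1432 CPM, and cartilage markers to 101360 and 93379 against 75281 and 73729 CPM, and their part in the Mgp value was not tested. The direction held in all 12 alternatives for this cluster, from 0.50 to 1.27, and 8 of them passed. The call was lost without either mutant library (edgeR adjusted p = 0.244 and 0.258), at a finer clustering (0.50) and with doublets kept (0.71).

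In cluster 1, Mgp stood at 6467 and 13425 CPM in controls (59 and 42 cells) and 4139 and 6726 CPM in mutants (824 and 811 cells) at day 13 and day 19. The mutant was lower at each age, although the control at day 13 lay beside the mutant at day 19. The fit gave -0.94 ± 0.193 (edgeR adjusted p = 0.012). The call was lost with genotype as the only term (edgeR adjusted p = 0.237) and without the control library at day 13 or day 19 or the mutant library at day 13 (edgeR adjusted p = 0.101, 0.626 and 0.275), and no other clustering held a cluster that overlapped cluster 1 by 0.5 or more (Jaccard index). In cluster 0 Mgp was 15864 and 18982 CPM in controls and 9773 and 16316 CPM in mutants, with a fitted value of -0.50 ± 0.290 that did not pass (edgeR adjusted p = 0.428). In clusters 5, 11 and 12 the fitted values were 0.56, -0.08 and -0.18, and none passed. Without the control library at day 13 or day 19 the value in cluster 5 passed (0.73 and 0.47), and without the mutant library at day 19 that in cluster 11 did (-0.45).

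The genotype difference of Mgp differed between the 6 clusters in 1 joint edgeR fit over cluster and library sums (adjusted p = 0.00167), a test that 5.35% of 11387 genes passed. Of 15 pairs of clusters, 5 passed for Mgp: its log2 difference was larger in cluster 6 than in cluster 1 by 2.03 ± 0.301 (edgeR adjusted p = 4.6e-04) and than in cluster 0 by 1.62 ± 0.298 (edgeR adjusted p = 0.0045), and cluster 6 also passed against 11 and 12, and cluster 5 against 1. For these 5 pairs, 2.54%, 2.01%, 1.37%, 0.694% and 0.509% of genes passed, in that order. Adjusted p-values are over genes within a pair. The overall call was lost without the mutant library at day 13 (adjusted p = 0.291), as was every pair, and the pair of clusters 6 and 0 also without the mutant library at day 19 (0.0576). The other 3 pairs were lost without the mutant library at day 19 too, and without the control library at day 13 (clusters 11 and 12 against 6) or day 19 (5 against 1). The pair of clusters 6 and 1 passed without each of the other libraries.

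Ucma fell in 3 of the 6 clusters. In cluster 6, whose leading genes include Ucma, it was 3736 and 3366 CPM in controls and 1464 and 1583 CPM in mutants at day 13 and day 19, and the fit gave -1.33 ± 0.259 (edgeR adjusted p = 9.4e-06). In cluster 0 it was 1026 and 817 CPM in controls and 301 and 352 CPM in mutants (-1.53 ± 0.195, edgeR adjusted p = 1.1e-04). In cluster 1 the fit gave -1.53 ± 0.213 (edgeR adjusted p = 7.0e-04). The groups did not overlap in any of these 3. In cluster 5 Ucma was 2289 and 2121 CPM in controls and 1820 and 2310 CPM in mutants, so the groups overlapped (-0.15 ± 0.294, edgeR adjusted p = 0.922). Cluster 11 (-0.43) and cluster 12 (-1.58) did not pass, although cluster 12 did in 8 of its 13 alternatives, all of the same sign.

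The joint fit gave a difference between clusters for Ucma (adjusted p = 0.0194), with 1 of 15 pairs past the threshold, cluster 12 against cluster 5 (-1.42 ± 0.339, edgeR adjusted p = 0.0485, with 0.887% of genes called). The overall call was lost without the control library at day 13 (adjusted p = 0.0697) and without the mutant library at day 13 (0.553) or day 19 (0.299). The falls in clusters 0 and 6 lost their calls without either mutant library, at values of -1.41 to -1.66 in cluster 0 and -1.29 and -1.39 in cluster 6. In cluster 1 the call was lost without either control library (edgeR adjusted p = 0.0990 and 0.0703). In the matches of cluster 6 the values were -0.37 at a finer clustering and -0.61 with doublets kept, neither past the test.

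Clusters with few control cells are given as levels. In mutant cells of cluster 7 (755 and 590 cells, against 8 and 7 control cells), Ucma was at 31.3 and 40.9 CPM and in 5.83% and 6.27% of thinned cells, beside 7.75 and 37.1 CPM and 1.95% and 1.47% in neutrophil-like cells of the same libraries. In mutant cells of cluster 2 it was at 184 and 293 CPM. In control cells of cluster 10 (1008 and 330 cells), which has 22 and 5 mutant cells, it was at 1268 and 2079 CPM.

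Gas6 rose in 5 of the 6 clusters and the sixth had the same sign. The log2 values were 1.06 in cluster 0, 1.73 in cluster 1, 0.88 in cluster 5, 1.14 in cluster 6 and 1.53 in cluster 12 (edgeR adjusted p = 2.8e-04, 3.1e-04, 0.0064, 2.1e-08 and 0.0269). In cluster 11 the fit gave 1.25 ± 0.471 (edgeR adjusted p = 0.222), from 4 and 6 control UMIs. In cluster 0 the levels were 83.2 and 98.8 CPM in controls and 201 and 186 CPM in mutants, without overlap. The fibroblast marker sum, whose class is high in Gas6, was also higher in both mutant libraries than in both controls in 5 of the 6 clusters, for example 14387 and 8818 against 22457 and 18323 CPM in cluster 0, and 3995 and 5121 against 12148 and 7857 CPM in cluster 12. In cluster 1 the groups overlapped (13456 and 12123 against 13725 and 13307 CPM). The part of this sum in the Gas6 values was not tested. The joint fit did not pass for a difference between clusters (adjusted p = 0.228). The rise in cluster 6 depended on the clustering: it held a negative sign in 3 of its 4 matches in other clusterings, -0.30 with the 4 genes among the variable genes, -0.03 at a finer clustering and -0.68 with doublets kept, none past the test. Under DESeq2 Gas6 did not pass in cluster 5 (adjusted p = 0.532) or cluster 12 (0.160). Without 1 or the other mutant library Gas6 did not pass in cluster 0 or 5, nor without the mutant library at day 13 in cluster 6 (edgeR adjusted p = 0.0537).

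Ggcx did not pass the edgeR test in any of the 6 clusters, with fitted values of -0.17 to 0.25, nor in the joint fit (adjusted p = 0.963).

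**Figure D4:**
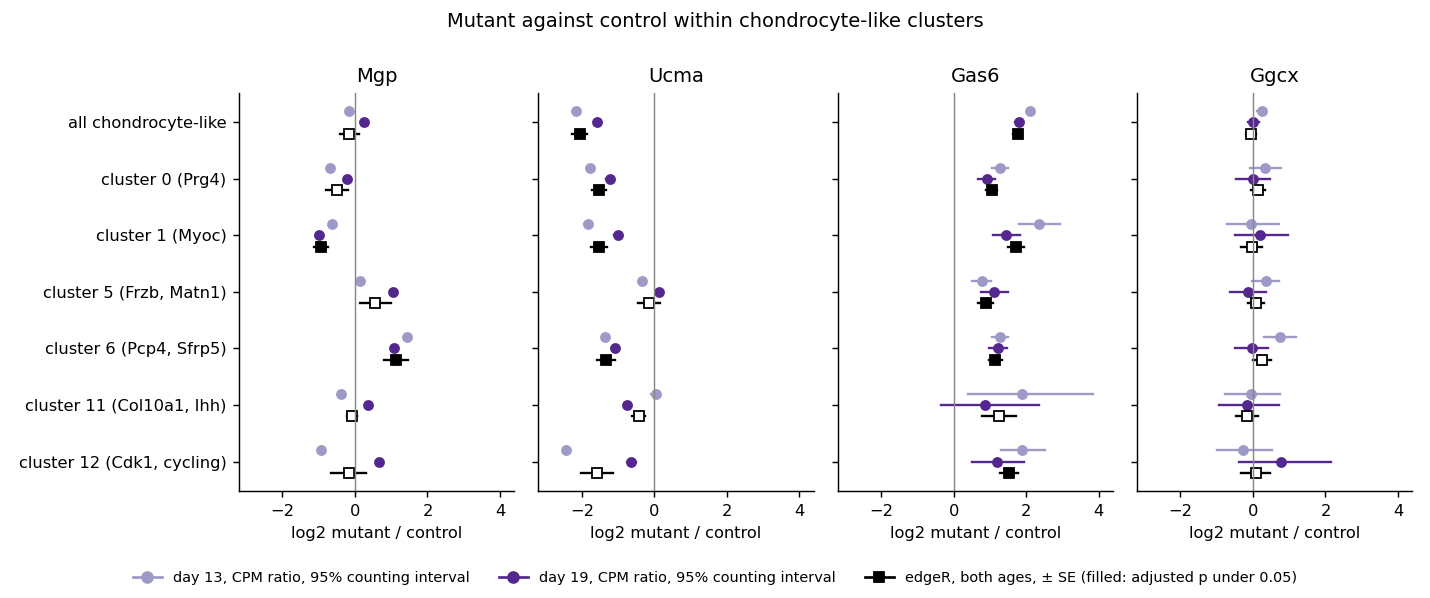
Log2 ratio of mutant to control for each gene in all chondrocyte-like cells and in 6 clusters; circles are plain CPM ratios at day 13 and day 19 with 95% counting intervals, and squares are edgeR values over both ages with SE, filled where adjusted p is under 0.05. Mgp lies on both sides of 0 (-0.94 in cluster 1, 1.14 in cluster 6), Ucma on the left or near 0, and Gas6 on the right throughout.

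In chondrocyte-like cells no member passed the edgeR test for age. Between day 13 and day 19 the fit gave 0.56 ± 0.253 for Mgp (edgeR adjusted p = 0.598), 0.24 for Ucma, 0.06 for Gas6 and 0.15 for Ggcx, in a comparison where 0.37% of genes passed. Mgp was higher at day 19 in both genotypes, by 0.40 in controls and 0.82 in mutants on the plain log2 scale. Ucma was level in controls (0.00) and higher at day 19 in mutants (0.58). In macrophage-like cells Mgp and Ucma passed as lower at day 19 (-1.60 and -2.11, edgeR adjusted p = 0.0384 and 8.3e-05, with 0.656% of genes called lower) and did not pass under DESeq2 (adjusted p = 1.0 and 0.360). Mgp there was 1095 and 66.2 CPM in controls and 145 and 205 CPM in mutants at day 13 and day 19, so the mutants did not share its direction. Whether the genotype difference changed with age was not tested, with 1 library per group.

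Outside the chondrocyte-like class, Gas6 rose in the Clec3b-led cluster 15, from 251 and 354 CPM in controls to 877 and 995 CPM in mutants at day 13 and day 19, without overlap (1.73 ± 0.207, edgeR adjusted p = 0.0045, in a comparison with 0.843% of genes called higher). This cluster had 145 and 55 control and 102 and 79 mutant cells and 2 of the 19 cartilage markers at 3-fold or more above blood cells. It was fitted in the main setting only, and no alternative was run for it. In macrophage-like cells, where Gas6 was 267 and 265 CPM in controls and 300 and 179 CPM in mutants, the fitted value was -0.22 ± 0.262 and did not pass (edgeR adjusted p = 0.943). In pericyte-like cells Gas6 was 101 to 129 CPM in 3 libraries and 676 CPM in the mutant at day 19 (72 cells), with no test because the control at day 19 had 22 cells.

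Ucma passed as lower in mutant macrophage-like (-3.58), erythroid-like (-1.73) and neutrophil-like cells (-1.38) and in cluster 15 (-2.75), where 0.858%, 1.26%, 0.712% and 0.262% of genes passed as lower (edgeR adjusted p = 1.1e-10, 0.0019, 0.0163 and 0.0058). It was at 228 and 40.0 CPM in control and 14.1 and 5.89 CPM in mutant macrophage-like cells at day 13 and day 19, and at 528 and 67.9 CPM against 58.7 and 67.5 CPM in erythroid-like cells. In both classes the control at day 13 lay far above the other 3 libraries and above the 44.9 CPM of its own neutrophil-like cells, and at day 19 the erythroid-like values were nearly equal. The other blood classes of the control at day 13 were at 27.2 (dendritic-like) to 118 CPM (B cell-like). Its unnamed clusters 17, 19, 28 and 29, with 0 cartilage markers at 3-fold or more above blood cells, were at 41.9 to 194 CPM. Gas6 passed as higher in mutant erythroid-like cells (1.79, edgeR adjusted p = 0.0044, with 2.5% of genes called higher), at 9.93 and 2.13 CPM in controls and 22.2 and 13.8 CPM in mutants. Under DESeq2 the neutrophil-like Ucma (adjusted p = 0.613) and both erythroid-like values (1.0 for Ucma, 0.625 for Gas6) did not pass. The part of free RNA in these values, and that of cluster 25 with its cartilage markers in the erythroid-like ones, was not tested. In B cell-like and monocyte-like cells, where 1.4% and 0.461% of genes passed, no tested member did, and without the filter on low counts Ucma and Gas6 did in B cell-like cells (edgeR adjusted p = 5.5e-10 and 0.0020).

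The other genes of the carboxylation pathway were read from the same fit in chondrocyte-like cells. For these lists, 12.8% of all genes tested rose and 10.5% fell. Of 6 vitamin K cycle genes, 0 rose, 3 fell and 3 did not pass, with a median log2 value of -0.36 against 0.01 over all genes tested. Vkorc1, the reductase that regenerates vitamin K, was at 390 and 432 CPM in controls and 320 and 323 CPM in mutants (-0.54 ± 0.135, edgeR adjusted p = 0.0178). Vkorc1l1, its paralog, was at 31.6 and 34.2 CPM in controls and 27.1 and 26.3 CPM in mutants (-0.48, edgeR adjusted p = 0.0233). Nqo1, a quinone reductase, was at 16.9 and 16.1 CPM in controls and 10.1 and 11.2 CPM in mutants (-0.82, edgeR adjusted p = 0.0052). The 2 genotypes did not overlap in any of the 3. Calu, an endoplasmic reticulum protein that restrains the carboxylase, was at 298 to 319 CPM in the 4 libraries and did not pass. The broad class gave the same counts.

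Of 14 other Gla-domain genes, 9 were tested, 4 rose and 1 fell. Pros1, the other known TAM ligand, was at 17.6 and 19.0 CPM in controls and 33.3 and 32.1 CPM in mutants (0.65 ± 0.133, edgeR adjusted p = 0.0063). Bglap (osteocalcin) was at 72.9 and 212 CPM in controls and 1218 and 1071 CPM in mutants (3.01 ± 0.323, edgeR adjusted p = 1.6e-04), Bglap3 rose by 2.53 and Bglap2 fell by 3.83 on the log2 scale. These 3 are neighbouring, near-identical genes, so how the counting divided reads among them is uncertain. Prrg1, at under 6 CPM in every library and named after its value was seen, was the fourth that rose (0.78). The osteoblast marker sum was also higher in these mutant cells (above), and its part was not tested.

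Among the 3 TAM receptors, 2 rose. Axl was at 5.68 and 6.38 CPM in controls and 12.7 and 15.1 CPM in mutants (1.01 ± 0.171, edgeR adjusted p = 0.0023). Mertk was at 10.3 and 11.4 CPM in controls and 17.0 and 23.5 CPM in mutants (0.70 ± 0.165, edgeR adjusted p = 0.0137). Tyro3, at under 10 CPM and named after its value was seen, did not pass (-0.22).

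Of 9 BMP ligands and receptors, which meet Mgp outside the cell, 2 rose, 2 fell and 5 did not pass, beside 12.8% and 10.5% of all genes, and the median was 0.03. The ligand Bmp7 fell from 22.6 and 32.4 CPM to 4.88 and 8.83 CPM (-2.22 ± 0.169, edgeR adjusted p = 2.1e-05), and Bmp6 from 12.5 and 14.6 CPM to 8.29 and 10.4 CPM (-0.73, edgeR adjusted p = 0.0099). The receptor Bmpr2 rose by 0.41 (edgeR adjusted p = 0.0381), and Acvrl1, at under 10 CPM and named after its value was seen, by 1.40. Bmp2, at 34.6 to 45.3 CPM, did not pass. In the broad class Acvr1 also passed, for 3 that rose.

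Of 6 genes that set pyrophosphate and phosphate for mineral, 2 rose and 0 fell, beside 12.8% and 10.5% of all genes, and the median was 0.05. Alpl, the tissue-nonspecific alkaline phosphatase that removes the mineralization inhibitor pyrophosphate, was at 126 and 172 CPM in controls and 735 and 630 CPM in mutants (2.02 ± 0.167, edgeR adjusted p = 3.2e-05). Alpl is also on the osteoblast marker list. Ank, which exports pyrophosphate precursors, rose by 0.62 (edgeR adjusted p = 0.0419), with the control at day 19 (44.2 CPM) inside the mutant range of 43.4 to 54.2 CPM. Enpp1, Slc20a1 and, at under 10 CPM and named after their values were seen, Phospho1 and Slc20a2 did not pass.

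**Figure D5:**
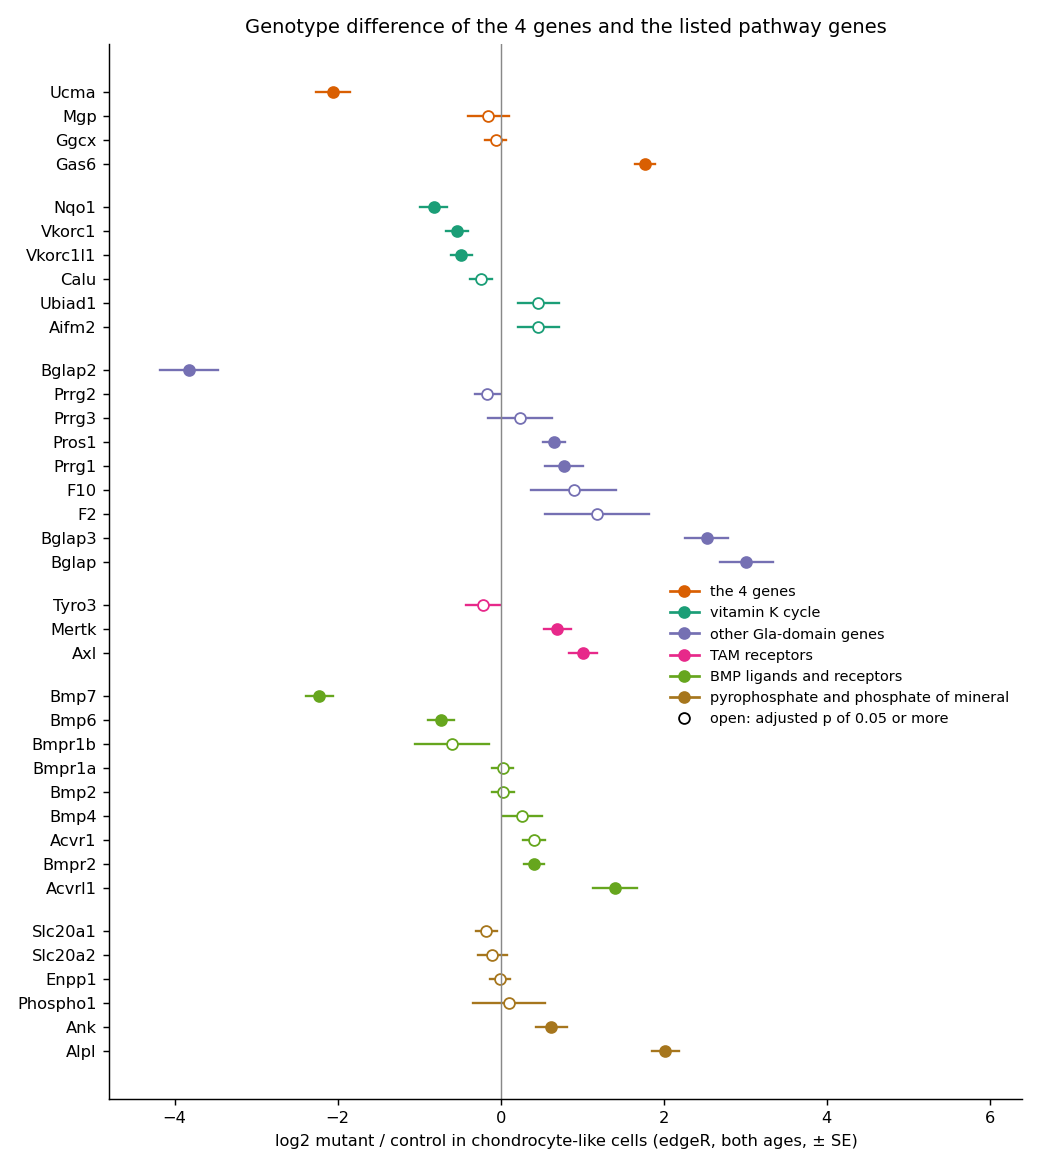
Log2 difference between mutant and control chondrocyte-like cells (edgeR over both ages, with SE) for the 4 genes and 5 lists of related genes; filled points have adjusted p under 0.05. The vitamin K cycle genes that passed lie left of 0, and of the TAM receptors Axl and Mertk lie right of it and Tyro3 left.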

How the data were processed

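Single cells were measured with the Chromium 3′ v3 assay in 4 libraries, 1 per genotype and age. The deposited values are UMI counts per gene and barcode, made with Cell Ranger 3.1.0 per the file headers, and the submitters' processing notes name Seurat 3 without a role and the mm10 build. The members and lists were chosen with earlier results of these data known.

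A barcode needed 500 genes or more and no more than 15% of its UMIs from mitochondrial genes, and barcodes with a Scrublet score above 0.2 (119 to 313 per library) were removed as doublets. Cells were clustered with scanpy 1.11.5 (2000 variable genes without the 4 members, 30 components, 15 neighbours, Leiden resolution 1.0) and named from fixed markers, so names are rebuilt and not the authors'. UMI counts were summed per class and library. CPM is relative to all UMIs of those cells. Sums were tested across all genes with edgeR 4.0.16 (R 4.3.3, TMM factors, filter on low counts, genotype and age as terms) with Benjamini-Hochberg adjustment. DESeq2 1.42.0 was an alternative, with other scalings, filters, clusterings and left-out libraries. Fits without 1 library had only the term tested, and the joint fit over clusters then had no age terms by cluster. A change in them is a change of model as well as of libraries. Intervals (95%) cover counting error only, and a count of 0 was drawn at 3 UMIs. On data simulated for genotype in chondrocyte-like cells at dispersions of 0.01, 0.02 and 0.05, 98%, 93% and 32% of 2-fold changes were recovered. For 4-fold changes it was 100% at each, and there were 11, 9 and 5 false calls. The simulation changed 200 genes and gave all genes the same dispersion and no age difference, so it is simpler than the data. The common dispersion of the fit to the data was 0.0183.

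Genes named from the lists reached 10 CPM in at least 1 library of chondrocyte-like cells, except Prrg1, Acvrl1, Tyro3, Phospho1 and Slc20a2, which were named after their values were seen, and the 5 genes most like each member were taken by Pearson correlation of log2(CPM + 1), of which 1 is not reported here. The rules for naming clusters and the fits within and across clusters, and the alternatives for age in macrophage-like cells, were set after the data were seen. Promoters are from RefSeq, in which 3 of the 4 members matched.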

Additional observations from a re-analysis of the deposited data

Results flagged for a closer look

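The genotype difference of Mgp differed between 6 chondrocyte-like clusters by a test of the difference itself (joint edgeR fit, adjusted p = 0.00167). The fitted log2 values were 1.14 in cluster 6 and -0.94 in cluster 1, with the other 4 clusters between them. The same test for Ucma gave an adjusted p of 0.0194, with fitted values from -1.58 in cluster 12 to -0.15 in cluster 5. Both fits have 5 residual degrees of freedom that come from the same 4 libraries. Leaving out the mutant library at day 13 ended both calls (adjusted p = 0.291 and 0.553).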

How the results depend on the processing

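No paired analysis was possible because each group holds 1 library and all replicate numbers are 1. In chondrocyte-like cells Ucma and Gas6 kept their direction and their call in the 16 tested alternatives each. Of 605 alternative values in all, 310 of those that keep every library and 120 of those that leave one out kept their direction and their side of the threshold, or moved by less than the margin set for a value or count without a test. The causes of the changes below were not tested. Genotype calls in the class went from 3471 to 2062 with DESeq2 and to 494 to 3702 without 1 library, lowest without the mutant library at day 13. Mgp, not past the test, changed sign with plain totals (0.034), Leiden resolution 0.5 (0.41) and 2.0 (0.024) and 1000 genes per barcode (0.33), and ran from -0.58 to 0.26 without 1 library. Ggcx changed sign with plain totals (0.13), resolution 0.5 (0.011), 1000 genes (0.014) and the mean of per-cell CPM (0.14), and ran from -0.17 to 0.028 without 1 library. Age calls, 55 of 14861, became 170 with plain totals, 534 without the filter, 108 in the broad class, and 0 with age as the only edgeR term (237 at an unadjusted p under 0.05) or without any 1 library (94 to 341 unadjusted), while DESeq2 gave 72. The age value of Gas6 was -0.013 in the broad class and -1.05 to 1.22 without 1 library, and that of Ucma without 1 library -1.07 to 1.69. The age fits without 1 library had no genotype term, and 1 age then held 1 genotype alone. Age and genotype cannot be told apart in these ranges. Calls in other classes with DESeq2 were 52 (B cell-like, from 144), 54 (erythroid-like, from 319), 24 (macrophage-like, from 162), 10 (monocyte-like, from 32) and 24 (neutrophil-like, from 172). Plain totals gave 121 in erythroid-like and 265 in neutrophil-like cells, and no filter 387 in B cell-like and 127 in monocyte-like cells. Calls in clusters 0, 5 and 6 (689, 340 and 1073) were 181, 50 and 228 with DESeq2, 187, 91 and 297 with 1 term, and 1054, 953 and 374 with doublets kept. Cluster 5 gave 1081 with 200 genes per barcode, and cluster 6 gave 36 at resolution 2.0 and 618 with 1000 genes. Without 1 library the calls ran from 4 to 861 in cluster 0, 125 to 361 in cluster 1, 13 to 640 in cluster 5, 143 to 819 in cluster 6, 225 to 555 in cluster 11 and 181 to 866 in cluster 12. In cluster 6 resolution 2.0 and doublets kept gave Mgp 0.50 and 0.71, Ucma -0.37 and -0.61 and Gas6 -0.032 and -0.68, with Gas6 at -0.30 when members were among the variable genes and Ggcx at -0.059 with doublets kept. In cluster 5, Gas6 was 0.89 with DESeq2 and with 1 term, both short of the threshold, and Mgp -0.19 at resolution 2.0. Ggcx in cluster 1 was 0.079 with plain totals and 0.060 without the filter, and Mgp in cluster 11 was 0.0036 without the filter. In cluster 12, members among the variable genes and 200 genes per barcode gave Mgp 0.28 and 0.12 and Ggcx -0.21 and -0.14, and doublets kept gave Ggcx -0.068. Without 1 library, cluster 0 gave Gas6 0.98 to 1.14 and Ucma -1.73 to -1.32. Without 1 library, cluster 1 gave Ggcx -0.097 to 0.12, Mgp -1.37 to -0.34 and Ucma -1.86 to -1.16. Without 1 library, cluster 5 gave Gas6 0.76 to 1.01, Ggcx -0.17 to 0.29, Mgp 0.17 to 0.92 and Ucma -0.32 to 0.0024. Without 1 library, cluster 6 gave Gas6 1.11 to 1.16, Ggcx -0.028 to 0.49, Mgp 0.98 to 1.27 and Ucma -1.46 to -1.23. Without 1 library, cluster 11 gave Gas6 0.68 to 1.97, Mgp -0.45 to 0.32 and Ucma -1.0 to 0.20. Without 1 library, cluster 12 gave Ggcx -0.29 to 0.68, Mgp -0.76 to 0.37 and Ucma -2.15 to -1.06. In the joint fit without 1 library, the adjusted p of Mgp ran from 0.00056 to 0.29, the Mgp difference of cluster 11 minus 6 from -1.503 to -0.75, the Mgp difference of cluster 12 minus 6 from -1.88 to -0.80. Likewise the Mgp difference of cluster 5 minus 1 ran from 0.77 to 2.10, the Mgp difference of cluster 6 minus 0 from 1.23 to 1.97, the Mgp difference of cluster 6 minus 1 from 1.67 to 2.45, the adjusted p of Ucma from 0.00082 to 0.55, the Ucma difference of cluster 12 minus 5 from -1.80 to -1.06. The differences between mutant and control shares of cells with a UMI, in percentage points at day 13 and day 19, were -10.4 and -7.04 for Mgp, -52.7 and -43.1 for Ucma, 18.0 and 16.2 for Gas6 and 0.354 and -0.293 for Ggcx. Unthinned they were -3.06 and -1.80, -41.3 and -33.9, 31.1 and 13.1, and 2.92 and -11.8 in that order. At 1000 UMIs they were -12.5 and -10.7 for Mgp, 10.2 and 10.6 for Gas6, and 0.442 for Ggcx at day 19. Cluster 1 had no match in the 6 other clusterings and cluster 11 had 1. Low counts limit Gas6 in cluster 11 and Ggcx in every cluster.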
